A study of Mus musculus with 68 samples.

Results

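Malat1, Meg3, Rian, Mirg, Neat1, Snhg11, Miat and Kcnq1ot1 are long noncoding RNAs that stay in or near the nucleus, and their counts were followed in single dopamine (DA) neurons of the ventral tegmental area (VTA) collected by Patch-seq, in which a neuron is first recorded with a glass pipette and its contents are then drawn into the same pipette for sequencing. The members were taken by gene symbol and are 8 of the 36172 genes of the table, 17940 of which were counted at least once. They were selected on measured values of these same cells, namely their share of the counts and the way they varied together, so the shares, the correlations and the genotype differences below are descriptions and none of them was tested.

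The 68 libraries are 33 cells labelled 3xTg and 35 labelled WT, from male and female mice aged 12 months. The 3xTg line is homozygous for 3 transgenes, APP Swe and Tau P301L among them, that together model amyloid and tau pathology, and WT animals came from a separately kept line on the same hybrid background. Suction was held until the nucleus reached the pipette tip where possible, so each sample could carry nuclear as well as cytoplasmic RNA. No label tells which animal a cell came from, so a genotype counts as 1 sample of cells, and intervals given here cover counting error only. Cells had been kept for counts of Th, Slc6a3 and Slc18a2, which mark DA neurons, and these were found in all 68, while cells with Pvalb, Tmem119, P2ry12 or Aldh1l1, which mark other cell types, had been left out by the authors. In the deposited counts 8 cells (4 of each genotype) held 10 or more counts of one of these. Counts per cell ranged from 492505 to 1678624, and the median number of genes detected was 8629 in 3xTg cells and 7603 in WT cells. The label numbers fall into alternating runs, 3xTg 24 to 55 (21 cells), 3xTg 76 to 92 (12 cells), WT 1 to 22 (17 cells), WT 57 to 74 (15 cells) and WT 94 to 96 (3 cells). What the numbers mark is not stated.

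Long noncoding RNAs are transcribed and often spliced and polyadenylated like messenger RNAs but code for no known protein, and many act at the chromatin or in nuclear bodies. Malat1 gathers in nuclear speckles, which store splicing factors, and Neat1 builds paraspeckles around which RNA-binding proteins assemble. Meg3, Rian and Mirg lie one after another in the imprinted Dlk1-Dio3 region and are expressed from the maternal chromosome. Kcnq1ot1 is the paternal antisense RNA that silences genes of the imprinted Kcnq1 region in cis. Miat, also called Gomafu, forms nuclear spots in neurons, and Snhg11, which the table types as protein-coding, belongs to the host genes of small nucleolar RNAs (snoRNAs).

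In the mm10 build, Malat1 (Entrez gene 72289) lies at chr19:5795690-5802671 on the minus strand as 1 exon, near Neat1 (66961) at chr19:5842302-5845478. Miat (330166) lies at chr5:112213228-112228948 and has 7 exons. The 3 Dlk1-Dio3 members follow each other on the plus strand, Meg3 (17263) at chr12:109540996-109571729, Rian (75745) at chr12:109603945-109661711 and Mirg (100040724) at chr12:109734981-109749457. Snhg11 (319317) lies at chr2:158375638-158386145, and Kcnq1ot1 (63830) is an unspliced transcript of 83437 bases at chr7:143213111-143296547 on the minus strand, inside the Kcnq1 gene.

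The libraries were made from RNA held on oligo-dT beads, which bind stretches of A, so the longest A run inside each member's GENCODE vM21 transcript is shown for the 5 members counted in 64 or more cells. Capitals mark the run and 15 bases stand on each side.
Malat1, chr19:5795973-5796014, minus strand: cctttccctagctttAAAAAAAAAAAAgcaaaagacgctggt
Meg3, chr12:109545802-109545847, plus strand: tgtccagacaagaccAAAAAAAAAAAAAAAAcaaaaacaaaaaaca
Rian, chr12:109652214-109652258, plus strand: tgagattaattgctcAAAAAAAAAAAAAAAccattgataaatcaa
Snhg11, chr2:158381597-158381634, plus strand: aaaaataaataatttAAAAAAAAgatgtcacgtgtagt
Kcnq1ot1, chr7:143226930-143227000, minus strand: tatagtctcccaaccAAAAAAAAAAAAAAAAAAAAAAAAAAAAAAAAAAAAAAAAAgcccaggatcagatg
These runs are 12, 16, 15, 8 and 41 bases long, and the Malat1 run ends 298 bases before the 3′ end of the transcript. As background, the mature 3′ end of Malat1 is known to be protected by an RNA helix in place of a poly(A) tail. In Neat1, Miat and Mirg, the members counted in 40 cells or fewer, the longest run was 5, 4 and 3 bases. Runs of 8 or more are common, since 39.7% of 3925 other expressed genes with a transcript hold one, and 16.1% (633 genes) hold a run of 12 or more, as Malat1, Meg3, Rian and Kcnq1ot1 do. Whether A runs bear on the counts was not tested.

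Reads from repeated sequence can be placed on more than 1 gene, so stretches of 40 bases that a member shares with other expressed genes, on either strand, were also searched. No pair of members shares such a stretch. The stretches below are the parts of Malat1 and Snhg11 that most genes share, with the most shared 40 bases in capitals.
Malat1, bases 585 to 704 of the transcript, chr19:5801968-5802087, minus strand: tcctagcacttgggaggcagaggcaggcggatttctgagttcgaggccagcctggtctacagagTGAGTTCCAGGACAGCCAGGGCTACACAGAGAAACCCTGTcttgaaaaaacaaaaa
Snhg11, bases 3817 to 3890 of the transcript, chr2:158384098-158384171, plus strand: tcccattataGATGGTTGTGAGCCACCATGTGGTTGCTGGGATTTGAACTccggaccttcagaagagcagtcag
The capitals of Malat1 occur in 156 other expressed genes and those of Snhg11 in 141. In sequence they are the short interspersed repeats B1 and B2 of rodents.

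The promoters of Meg3 and Kcnq1ot1, 250 bases before to 50 bases after the start (RefSeq, GRCm38.p6), are printed because they held the most matches to the 6 motifs searched on both strands. The CRE, TGACGTCA, was held by 1.79% of 32851 promoters. The TATA box, TATAAA, was held by 13.6% and CCAAT by 37.4%. The GC box, GGGCGG, was held by 35.7% and the E box, CACGTG, by 7.15%. The YY1-type motif, GCCATNTT, was held by 6.05%. Capitals mark the matches.
Meg3, chr12:109540746-109541045, plus strand: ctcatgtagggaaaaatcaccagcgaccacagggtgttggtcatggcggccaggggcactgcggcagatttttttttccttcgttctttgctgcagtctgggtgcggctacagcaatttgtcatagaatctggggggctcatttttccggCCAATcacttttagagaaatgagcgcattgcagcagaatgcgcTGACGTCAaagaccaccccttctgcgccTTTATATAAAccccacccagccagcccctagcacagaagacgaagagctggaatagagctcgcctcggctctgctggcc
Kcnq1ot1, chr7:143296498-143296797, minus strand: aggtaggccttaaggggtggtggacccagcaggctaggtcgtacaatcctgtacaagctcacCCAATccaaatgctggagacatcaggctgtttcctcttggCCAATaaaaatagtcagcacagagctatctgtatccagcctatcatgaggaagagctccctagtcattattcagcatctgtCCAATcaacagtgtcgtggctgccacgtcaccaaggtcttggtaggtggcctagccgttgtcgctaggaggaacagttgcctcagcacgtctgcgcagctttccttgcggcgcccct
Counted from the start site, Meg3 holds the CRE at −57 to −50, TATAAA at −25 to −20 with an overlapping match on the other strand at −29 to −24, and CCAAT at −100 to −96. Kcnq1ot1 holds CCAAT beginning at −188, −148 and −67. The windows of Malat1, Snhg11 and Rian, and a second RefSeq window of Meg3 at chr12:109545148-109545447 hold none of the 6 motifs, so no motif is common to the 4 abundant members. Mirg holds CCAAT at −184 and Miat the GC box at −224, and Neat1 had no entry. A match of letters is a description of the window and does not show that a factor binds there.

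Malat1 was the most counted gene of the whole table, with 1.81% of all counts, and it was the most counted gene in 29 of 68 cells. Snhg11 ranked 5, Meg3 ranked 7 and Kcnq1ot1 ranked 12 by summed count, which depends on transcript length as well as on level. Per kilobase of transcript, the level in CPM, a count scaled to a common total, was 2590 for Malat1, 1229 for Snhg11 and 385 for Meg3. The other members were lower per kilobase, with 43.3 CPM for Kcnq1ot1, 27.9 for Rian, 23.3 for Mirg, 7.41 for Miat and 0.569 for Neat1. Each neighbouring pair in this order overlapped widely in its range over cells. Malat1, for example, ran from 2.48 to 11625 CPM per kilobase and Snhg11 from 6.81 to 7258.

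**Figure D1:**
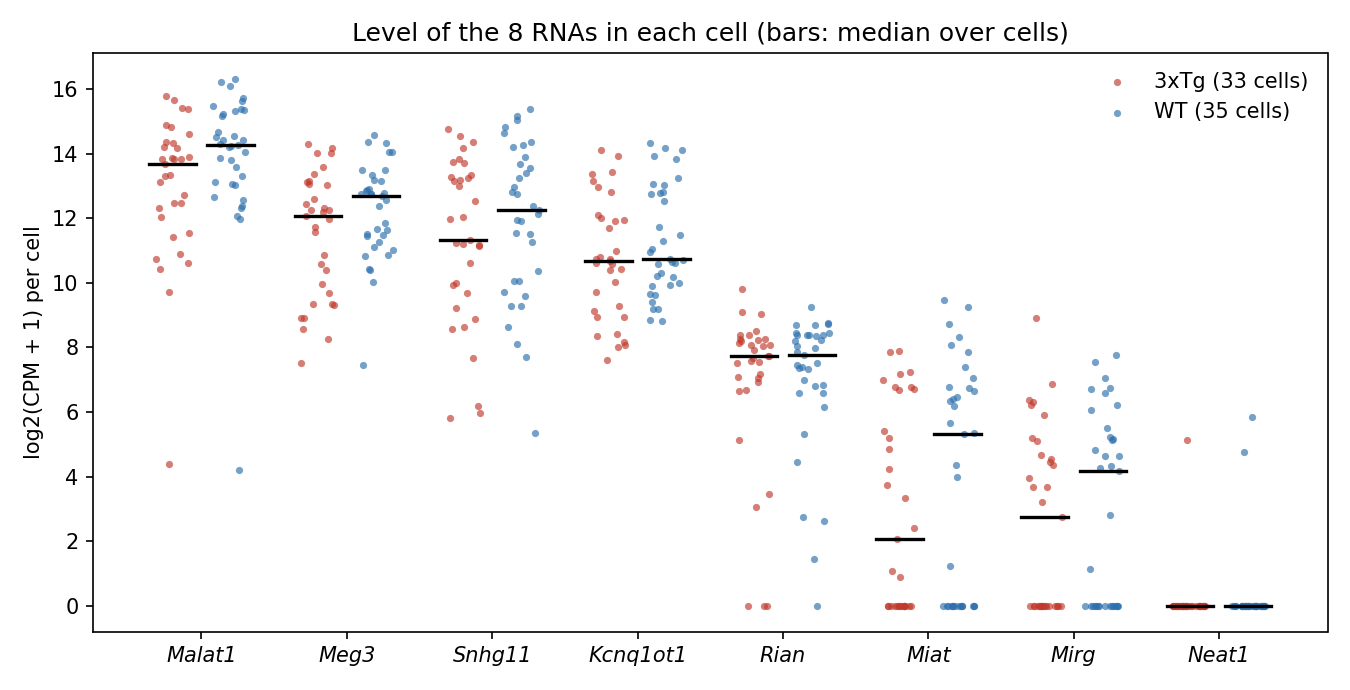
Level of each member in each of the 68 cells, as log2(CPM + 1), with 3xTg and WT cells side by side, where each point is 1 cell and each bar is the median over cells. Malat1 stands highest, the genotypes overlap in every member, and Neat1 has a count in 3 cells only.

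As a share of a cell's counts, Malat1 ran from 0.0017% through a median of 1.498% to 8.12%. Its median was 1.32% in 3xTg cells and 1.97% in WT cells, and the 2 genotypes overlapped over most of the range. The highest cell held 4684 times the share of the lowest. Much of that span came from 3xTg cell 36, with 25 Malat1 counts of 1267848, and WT cell 20, with 23 of 1327367; the next lowest cell was at 0.084%. In these 2 cells Meg3, Snhg11 and Kcnq1ot1 were also low, at 0.018%, 0.0055% and 0.027% in 3xTg cell 36 and 0.017%, 0.0040% and 0.046% in WT cell 20. Rian was not low there, at 0.031% and 0.042%.

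Meg3, the first RNA of the Dlk1-Dio3 cluster, ran from 0.017% through 0.491% to 2.46% of a cell's counts and was counted in every cell. Rian, the host of a large group of C/D-box snoRNAs, ran from 0 through 0.021% to 0.089% and had a count in 64 of 68 cells (94.1%, 95% Clopper-Pearson interval 85.6% to 98.4%). Mirg, the host of a microRNA cluster further along, had a count in 37 cells (54.4%, 41.9% to 66.5%), with a median of 7.16 and a highest value of 482 CPM. All 37 cells with Mirg also had Rian, and the 4 cells without Rian had no Mirg. Each of these 4 still had Meg3, from 338 counts in 3xTg cell 24 to 5760 in 3xTg cell 43.

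Snhg11 ran from 0.0040% through 0.411% to 4.26%, with medians of 0.257% in 3xTg and 0.492% in WT cells. Kcnq1ot1 ran from 0.019% through 0.168% to 2.07%, and its medians of 0.164% and 0.172% were close. It was counted in every cell, whereas the overlapping gene on the opposite strand, Kcnq1, a potassium channel, held 4.74 counts in all against 255674 for Kcnq1ot1. The libraries were directional, but whether the counting used strand is not stated, so RNA from the introns of Kcnq1 cannot be told apart from Kcnq1ot1. The genes that overlap Meg3, Rian, Mirg and Neat1 held at most 8 counts together per member.

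Miat had a count in 40 cells (58.8%, 46.2% to 70.6%), 19 of the 33 3xTg and 21 of the 35 WT cells, with a median of 10.8 and a highest value of 711 CPM. Miat and Mirg were both present in 31 cells and both absent in 22. Neat1 was counted in 3 cells only (4.41%, 0.919% to 12.4%), namely 3xTg cell 32 with 40 counts, WT cell 2 with 17 and WT cell 64 with 64. A count of 0 allows up to 3 counts, or 1.79 to 6.09 CPM depending on the cell. Neat1, which has a span of 3177 bases in the table, was not detectable at this depth in the other 65 cells. RNA beyond that span was not followed. Of 19 markers of astrocytes, microglia and oligodendrocytes, 7 had a count in 3xTg cell 32 (246 counts in all), 7 in WT cell 2 (368 counts) and 5 in WT cell 64 (240 counts). Slc1a2, a glutamate transporter, held most of these counts in each cell, with 159, 303 and 155. It was not particular to these cells, since all 68 cells had a count of it, with 234 CPM over all of them. Mbp, Mobp and Cx3cr1 likewise had a count in 67, 66 and 60 cells. The part of these markers in the Neat1 counts was not tested.

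Summed over the 8 members, the share of a cell's counts had a median of 2.96% and ran from 0.084% in 3xTg cell 36 to 15.9% in WT cell 2. It exceeded 10% in 8 cells, 2 of them 3xTg and 6 WT, and was at or under 1% in 15 cells, 11 of them 3xTg and 4 WT. The medians of the runs were 1.97% (3xTg 24 to 55), 3.04% (3xTg 76 to 92), 1.75% (WT 1 to 22), 4.76% (WT 57 to 74) and 7.01% (WT 94 to 96), so the runs of each genotype differed among themselves. The summed share went with a lower total count (Spearman's rho −0.65 over 68 cells), with more genes detected (0.38) and with a lower share of counts in ribosomal protein genes (−0.72). These points share their libraries and depth, and no p-value is attached to them.

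**Figure D2:**
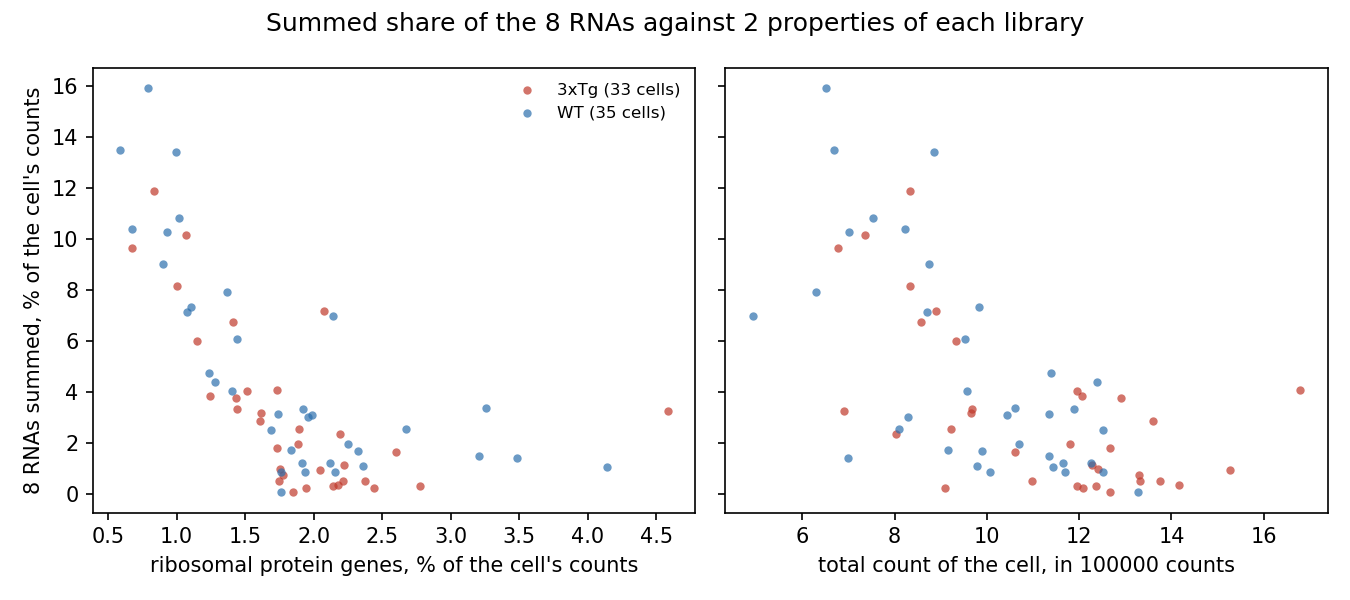
Summed share of the 8 members in percent of a cell's counts, for each of the 68 cells, against the share of its counts in ribosomal protein genes (left) and its total count (right), with points coloured by genotype. The share is lower in cells with more counts and in cells with more ribosomal protein RNA.

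For the correlations, each count was scaled to CPM of the counts outside the members, with 1 added before the log2, so that the members could not lower each other's values. Malat1, Meg3, Snhg11 and Kcnq1ot1 varied together over the 68 cells. Spearman's rho was 0.92 for Malat1 and Meg3, 0.88 for Malat1 and Snhg11 and 0.90 for Malat1 and Kcnq1ot1. It was 0.91 for Meg3 and Snhg11, 0.86 for Meg3 and Kcnq1ot1 and 0.92 for Snhg11 and Kcnq1ot1. The median of these 6 pairs was 0.91, and it was 0.93, 0.85, 0.79 and 0.85 within the 4 runs of 12 or more cells. With size factors in place of the total, values that correct for the depth of each cell's typical gene, the median was 0.78. The log2 ratio between 2 of these RNAs varied less from cell to cell (SD 1.01 to 1.43) than the RNAs themselves (SD 1.80 to 2.55).

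**Figure D3:**
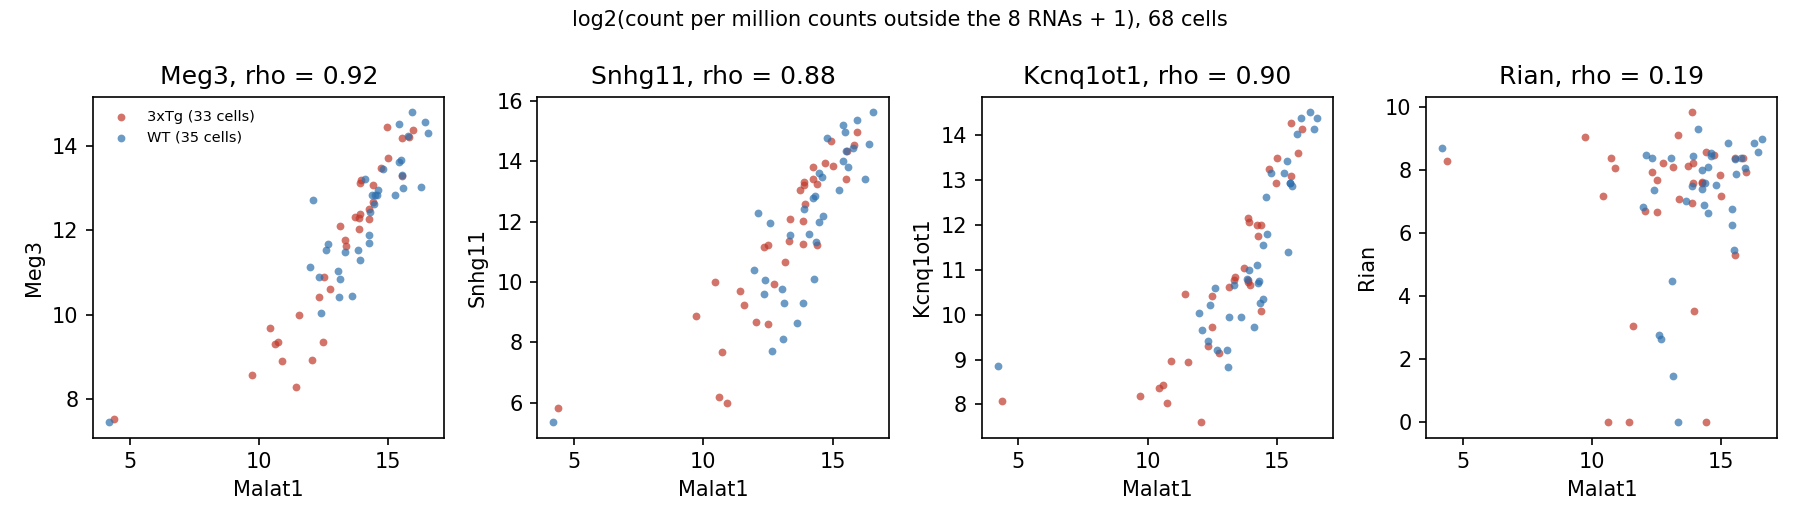
Level of Malat1 against that of other members in the 68 cells, in log2 of CPM of the counts outside the members, plus 1, where each point is 1 cell coloured by genotype. Meg3, Snhg11 and Kcnq1ot1 follow Malat1 closely (rho 0.92, 0.88 and 0.90), and Rian does not (0.19).

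Miat and Mirg followed the 4 abundant RNAs less closely, with rho of 0.63 to 0.68 and 0.66 to 0.72, and their many cells without a count limit these values. Rian followed the others least of the members counted in most cells. Its rho was 0.19 with Malat1, 0.20 with Snhg11 and 0.23 with Kcnq1ot1, although it was counted in 64 cells. It was also 0.18 with Meg3 and 0.38 with Mirg, its neighbours in the same cluster. Within runs its values spread widely, with 0.47 for Malat1, 0.49 for Meg3 and 0.54 for Mirg in WT 1 to 22, 0.55 for Kcnq1ot1 and 0.52 for Mirg in 3xTg 76 to 92, and down to −0.29 (with Miat) in WT 57 to 74. With size factors the values for Rian ran from −0.21 to 0.09. Neat1, with 3 cells, gave 0.10 to 0.18.

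**Figure D4:**
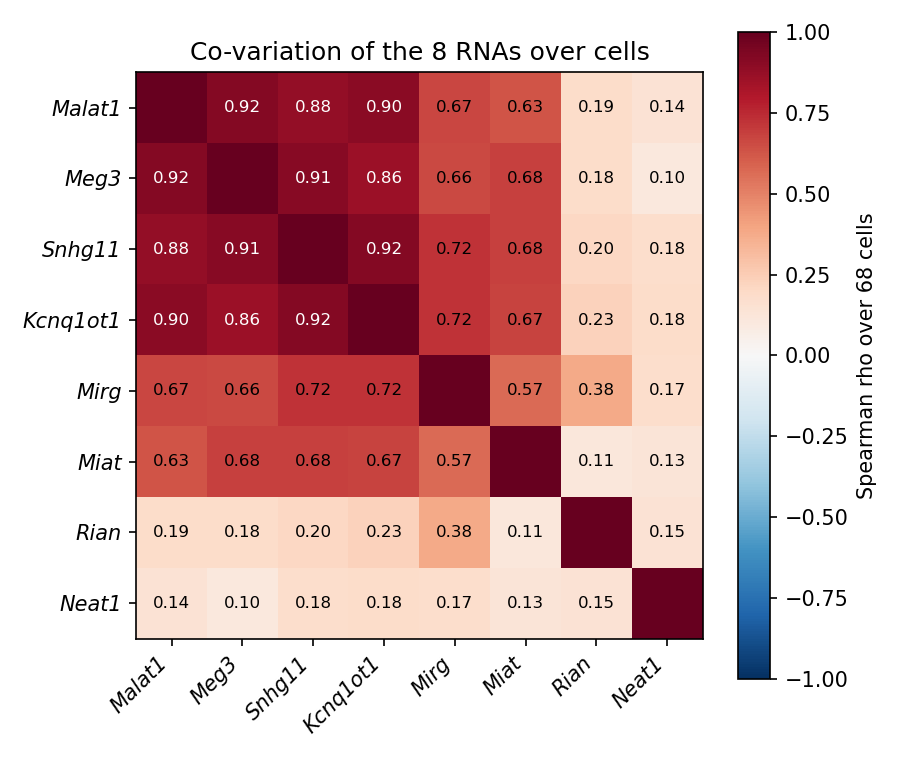
Spearman's rho over 68 cells for each of the 28 pairs of members. Malat1, Meg3, Snhg11 and Kcnq1ot1 form a block of 0.86 to 0.92, Miat and Mirg lie next to it, and Rian and Neat1 are low with all others.

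Of 3983 expressed genes outside the members, 1098 (27.6%) had a rho of at least 0.5 with the summed members and 95 (2.39%) had one of at most −0.5, with a median of 0.12. With size factors in place of the total, the counts were 574 and 672 and the median was −0.15, so the balance of the 2 directions depended on the scaling. The most alike were Gm15910 (0.98), Tmod1 (0.98), Tstd2 (0.97), Ecm2 (0.97) and B230120H23Rik (0.97), of which Tmod1 codes for tropomodulin, a cap of actin filaments. The least alike were Eef1a1 (−0.67), an elongation factor of translation, Ywhah (−0.67), a 14-3-3 protein, Cfl1 (−0.66), an actin-severing factor, Rpl4 (−0.65), a ribosomal protein, and Snurf (−0.63). The least alike genes thus include abundant coding genes, and ribosomal proteins as a list were lower where the members were high. The second principal component of the expressed genes, computed without the members, carried 8.21% of the variance, and its rho had a size of 0.86 with the summed members and of 0.71 with the number of genes detected. The first, with 20.5% of the variance, had sizes of 0.42 and 0.57.

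The most alike genes also shared sequence with the members. Gm15910 shared 63 stretches of 40 bases with Malat1, Tmod1 and Tstd2 shared 45 each and B230120H23Rik shared 47, all within the bases of Malat1 shown above, and Ecm2 shared 7 with Kcnq1ot1. Of genes with a rho of at least 0.8, 125 of 272 with a transcript shared a stretch with a member, against 741 of 3925 (18.9%) of all expressed genes and 6 of 95 (6.32%) of those at or under −0.5. Among the 3184 genes that shared none, 702 still had a rho of at least 0.5 and 147 (4.62%) one of at least 0.8, led by Gm17821 (0.94), B4galnt2 (0.94) and Ifnar1 (0.93), the interferon receptor subunit. The part of repeated sequence in the correlations was not tested. Most counts of the abundant members were not whole numbers (Malat1 in 66 of 68 cells), as happens when reads are divided between transcripts.

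The genes most like each member were found in the same way. Malat1 was most like Gm15910 (rho 0.99), B230120H23Rik (0.99) and Tmod1 (0.98), and Meg3 most like Spc24 (0.93), Ctcfl (0.93) and Tnfrsf10b (0.91). Snhg11 was most like Gm17821 (0.92) and A130077B15Rik (0.92), and Kcnq1ot1 most like Gm17821 (0.97), A630089N07Rik (0.97) and Zfp488 (0.96). Gm17821 thus headed both. Miat was most like Rab3d (0.77), Cyp2j5 (0.75) and Plin3 (0.75), and Mirg most like Tgm3 (0.75), Neurl3 (0.75) and Grk4 (0.74). Rian was most like Srp72 (0.47), Stk39 (0.46) and Pigq (0.46), and Neat1 most like Mblac2 (0.34), Gtf2a1 (0.34) and Gm20199 (0.32), so for both even the closest gene followed loosely.

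The proteins and RNAs around the members were taken as lists. Of 11 nuclear speckle and splicing proteins expressed, 5 had a rho of at least 0.5 with the summed members, against 27.6% of all expressed genes, and the list's median was 0.48 against 0.12. Its most counted members, Sf3b1 (0.48), Srsf5 (0.42), Son (0.47) and Srsf7 (0.48), lay just under 0.5, and the splicing factor Srsf2 was highest (0.69). Of 7 paraspeckle proteins expressed, none reached 0.5 in either direction, with Hnrnpk at −0.49, Matr3 at −0.11, Ewsr1 at 0.04 and Hnrnpu at 0.14. Among other snoRNA hosts, 11 of 18 were in the table and 3 were expressed, with Gas5 at 0.63 and Snhg3 and Snhg8 at 0.28. Of 4 other long noncoding RNAs expressed, Sox2ot (0.82) and Airn (0.70), the antisense RNA of the Igf2r region, were high, while Tug1 was at 0.19 and 2900097C17Rik at −0.49. Long noncoding RNAs therefore did not all vary with the members. With size factors, 1 of the 11 speckle proteins was at or above 0.5 (Srsf2, 0.55), or 9.09% against 14.4% of all expressed genes, and the list's median was 0.09 against −0.15. Gas5 was then at 0.25, Sox2ot at 0.68, Airn at 0.53, Hnrnpk at −0.66 and 2900097C17Rik at −0.71.

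The coding neighbours of the imprinted members gave no values of 0.5 or more. In the Dlk1-Dio3 region 4 of 10 genes were expressed, from Dlk1 (−0.34), a Notch-family ligand, to Wdr25 (0.44). In the Kcnq1 region 2 of 12 were expressed, Cd81 (−0.32) and Nap1l4 (−0.11). Of the 12 genes, 9 had a count in at least 1 cell (Cd81 in 65 cells), and Cdkn1c, Ascl2 and Slc22a18 were at 0 in all cells. Whether Kcnq1ot1 silences any of them in these neurons was not tested. Of 74 expressed cytosolic ribosomal proteins, 15 were at or under −0.5 and none at or above 0.5, with a median of −0.41. Among all expressed genes outside the members these shares were 2.39% and 27.6%, and the median was 0.12. The 4 dopaminergic markers lay between −0.47 (Th) and −0.21 (Slc6a3), and 6 general neuronal markers between −0.58 and −0.09. With size factors these lists went lower, with 62 of the 74 ribosomal proteins, the 4 dopaminergic markers and 4 of the 6 neuronal markers at or under −0.5, as were Dlk1 (−0.61) and Cd81 (−0.60). Expressed genes outside the members also went lower as a whole on this scale, to a median of −0.15, with 672 of 3983 (16.9%) at or under −0.5.

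Markers of other cells that a pipette could carry differed widely from cell to cell, and single cells reached high sums. Astrocyte markers summed to 11.6 to 924 CPM in 3xTg cells and 6.13 to 2510 in WT cells, with Aldh1l1, which the authors selected against, at 0 in every cell and a rho of the list with the members of −0.08. Microglia markers summed to 0 to 5215 and 0 to 2870 CPM (rho 0.23), and Cx3cr1, a chemokine receptor with 13.1 CPM over all cells, had 0.74 on its own, while the other 6 lay between −0.13 (C1qb) and 0.06 (P2ry12). Oligodendrocyte markers summed to 5.66 to 621 and 7.94 to 2540 CPM (0.26), and endothelial markers were at 0 apart from 2 counts. Of the GABA and glutamate neuron markers, summed to 1.10 to 187 and 3.14 to 765 CPM (0.52), Gad2, the GABA-synthesising enzyme, had 0.83 at 29.5 CPM, while the other 5 lay between −0.21 (Slc32a1) and 0.06 (Slc17a7 and Pvalb). The part of these markers in the correlations was not tested.

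For the genotypes, values were log2 of counts divided by size factors, plus 1, and the difference was taken as 3xTg minus WT over cells. Malat1 was lower in 3xTg cells, with a mean of 12.92 (SD 1.84, 33 cells) against 13.76 (SD 1.68, 35 cells), a difference of −0.84 on the log2 scale. Meg3 had 11.43 (SD 1.48) against 12.07 (SD 1.04), a difference of −0.63, Snhg11 11.22 (SD 2.11) against 11.75 (SD 1.99), a difference of −0.53, and Kcnq1ot1 10.68 (SD 1.40) against 11.14 (SD 1.19), a difference of −0.46. Each of these differences was smaller than the SD over cells, and the ranges overlapped. The median difference of all expressed genes was 0.47 in the other direction on this scale, while 3xTg cells had more genes detected and more counts (median 1194457 against 982390).

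Among the sparser members, Miat differed by −0.94, Mirg by −0.32, Neat1 by −0.10 and Rian by −0.06 on the same scale. Single cells moved the last 3 values by over 1.5 times or turned their sign. Mirg became −0.52 without 3xTg cell 50, −0.21 without WT cell 66 and −0.19 without WT cell 95. Neat1 became −0.26 without 3xTg cell 32 and above 0 without WT cell 2 (0.0012) or WT cell 64 (0.05). Rian ran from −0.26 without WT cell 16 to 0.15 without 3xTg cell 24, 26 or 43, and was above 0 too without 3xTg cell 30, 78 or 89 or WT cell 5 or 20. No member differed by 1 or more in either direction, against 27.7% of 3988 expressed genes at or above 1 and 0.527% at or under −1. By the log2 ratio of CPM of the summed counts, the values were −0.75 for Malat1, −0.41 for Meg3, −0.50 for Snhg11 and −0.47 for Kcnq1ot1. For Malat1 the sums were 13611 CPM in 3xTg cells (95% Poisson interval 13573 to 13649) and 22910 in WT cells (22859 to 22961), intervals that leave out the spread between cells. The log2 ratios were −1.33 for Miat, −1.13 for Neat1, −0.16 for Mirg and 0.06 for Rian. On this scale 2 of the 8 members, Miat and Neat1, were at or under −1, against 3.81% of expressed genes, and none at or above 1, against 2.63%. Neither Miat nor Neat1 passed the filter for expressed genes, and single cells weigh on both, since WT cell 6 held 21.6% of the WT counts of Miat and WT cell 64 and WT cell 2 held all those of Neat1 (64 and 17).

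**Figure D5:**
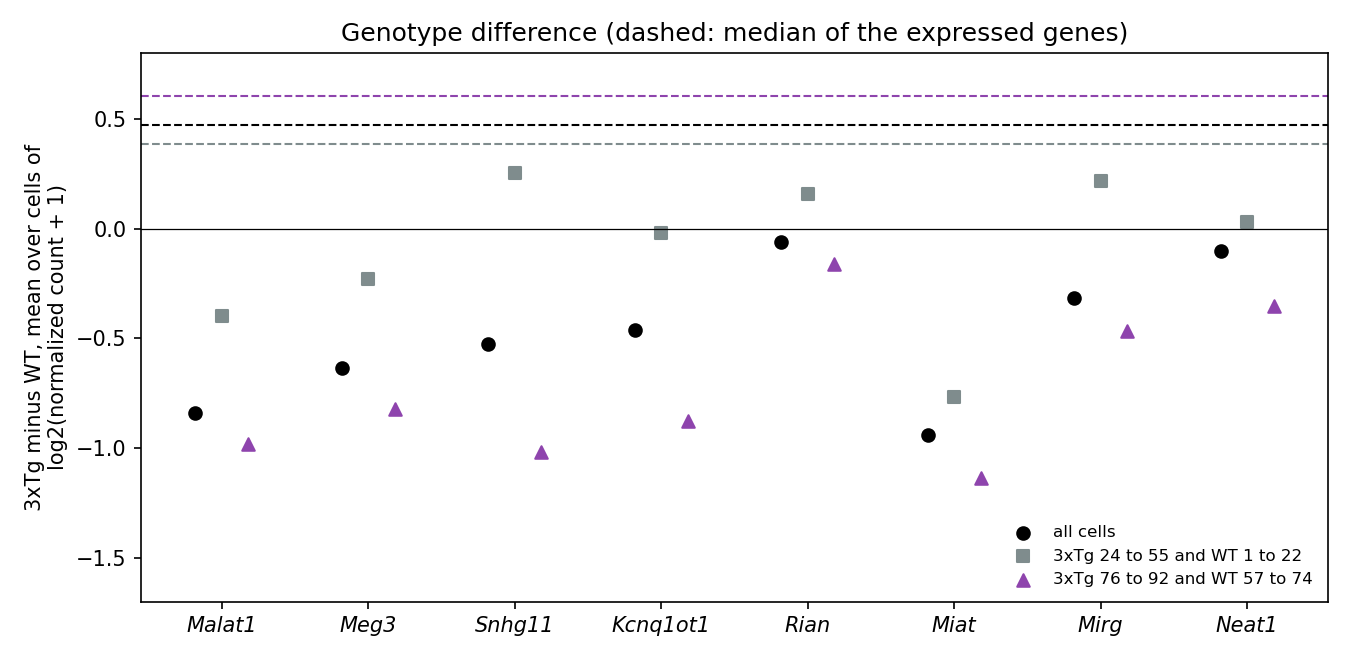
Difference between 3xTg and WT cells for each member on the log2 scale, as the mean over cells for all cells, for the first runs and for the second runs, with dashed lines at the median of the expressed genes. Values over all cells lie below 0 for the 8 members, and the second runs lie lower than the first for every member.

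The difference depended on which runs of label numbers were set against each other. Between the first runs (3xTg 24 to 55 and WT 1 to 22) the difference of means was −0.40 for Malat1, −0.23 for Meg3, 0.26 for Snhg11 and −0.02 for Kcnq1ot1. Between the second runs (3xTg 76 to 92 and WT 57 to 74) it was −0.98, −0.82, −1.02 and −0.87. By the ratio of summed counts the first runs gave −0.05 for Malat1, 0.34 for Meg3, 0.24 for Snhg11 and 0.36 for Kcnq1ot1, so the direction turned for Meg3 and Kcnq1ot1. On that scale the second runs gave −1.23, −0.89, −0.94 and −1.15. Within WT alone, cells 57 to 74 were higher than cells 1 to 22 by 0.99 for Malat1, 0.76 for Meg3, 1.78 for Snhg11 and 0.81 for Kcnq1ot1, with a median of 0.99 over the members against 0.49 over expressed genes. Within 3xTg, cells 76 to 92 differed from cells 24 to 55 by less, with 0.40 for Malat1, 0.17 for Meg3, 0.51 for Snhg11 and −0.04 for Kcnq1ot1, against 0.46 over expressed genes. The unadjusted difference between the runs of WT was thus as large as, or larger than, that between the genotypes for each of these 4. Relative to the median of expressed genes, however, the runs of WT differed by 0.50 for Malat1, 0.27 for Meg3 and 0.32 for Kcnq1ot1, smaller in size than the genotype differences (−1.31, −1.11 and −0.93). For Snhg11 the run difference stayed the larger, at 1.29 against −1.0. Genotype and run cannot be told apart with 1 sample of cells per genotype.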

How the data were processed

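Single VTA DA neurons were collected by Patch-seq, and 1 library per cell was sequenced (2 × 100 bases, 28 cycles of PCR). The authors aligned reads to the mm10 RefSeq transcriptome in Strand NGS 4.0, removed duplicates and deposited estimated counts per gene, of which 55.3% of those above 0 are not whole (tolerance 0.001), and log2 values normalized with DESeq2. The estimated counts were used unrounded; the deposited log2 values served only as an alternative, chosen after seeing the data. The members and gene lists were chosen with earlier results of these data known.

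Shares are percent of a cell's summed counts. Size factors came from 787 genes counted in all cells, with a pseudocount of 1, and a gene was taken as expressed where normalized counts reached 1 in 80% of the cells of either genotype. Since the labels name no mouse, no test was run. Named genes were the members, the 5 genes most and least like their sum, the 3 most like each member (1 of those for Snhg11, and 1 transgene, are not reported here) and up to 4 of the most counted expressed genes of each list. Others named (Srsf2, Cdkn1c, Ascl2, Slc22a18, C1qb, P2ry12, Slc32a1, Slc17a7, Pvalb, Aldh1l1 and the genes sharing no stretch) were chosen after their values were seen. Of the members, 2 were matched to GENCODE vM21 by symbol and the others by Entrez number. A mitochondrial share was not computed, since 0 genes of the table carry an mt- symbol. The lists were other snoRNA hosts, other long noncoding RNAs, Dlk1-Dio3 and Kcnq1 region genes, paraspeckle and speckle proteins, ribosomal proteins and markers of 7 cell classes. Calculations used Python 3.11.15 with numpy 2.4.6, scipy 1.17.1 and pandas 2.3.3, and were tested on simulated data; TMM factors came from edgeR 4.0.16 in R 4.3.3.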

Additional observations from a re-analysis of the deposited data

How the results depend on the processing

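Of 259 values recomputed under an alternative other than leaving out a cell, 229 stayed within the spread used for comparison (1.5 times for counts of genes) and 30 moved further. For shares and genotype differences this spread was an SD over cells. That SD is larger than the members' genotype differences, so staying within it does not show that a difference held. Snhg11, for example, counted as within it while going from −0.53 over all cells to 0.26 in the first runs. For correlations the spread was the SD between runs. The signs of single members did change between runs, as given above. Of 3988 expressed genes, 21 were lower in 3xTg cells by at least 1. This number became 56 with a pseudocount of 0.1, 6 with 10, 152 by the ratio of summed counts and 45 by medians. It was 75 and 141 within the first and second runs, and 92 of 17940 when all genes with a count were taken. The number of expressed genes higher by at least 1 was 1106, and became 395 with a pseudocount of 10 and 105 by the ratio of summed counts. It was 2815 of 17940 when all genes with a count were taken. The median rho of the 28 member pairs was 0.60, and became 0.46 within 3xTg 24 to 55, 0.37 within WT 57 to 74 and 0.44 with the authors' log2 values. That of Malat1, Meg3, Snhg11 and Kcnq1ot1 was 0.91, and became 0.78 with size factors, 0.85 within 3xTg 76 to 92, 0.79 within WT 1 to 22, 0.85 within WT 57 to 74 and 0.78 with the authors' values. Genes with a rho of at least 0.5 numbered 1098 of 3983, and became 574 with size factors and 337 with the authors' values. They were 702 of the 3184 genes that shared no 40-base stretch with a member. Genes at or under −0.5 numbered 95, and became 18 by Pearson's r, 154 with the total over all genes, 672 with size factors, 190, 343 and 423 within 3xTg 24 to 55, 3xTg 76 to 92 and WT 57 to 74, 55 in thinned cells and 347 with the authors' values. The cause was not tested. The settings with the authors' values, without shared stretches and without 2 cells were chosen after seeing the data. Leaving out each cell in turn gave a summed share of 2.87 to 3.05%, a median genotype difference of −0.59 to −0.39, and a median rho of 0.58 to 0.64 over all pairs and 0.90 to 0.92 over the 4 abundant members; the differences of Mirg, Neat1 and Rian moved by over 1.5 times or turned, as given above. Without 3xTg cell 36 and WT cell 20 the summed share was 3.09% and the genotype difference −0.48. No paired analysis was possible because the labels name no mouse and give nothing by which cells could be paired. Depth limits Neat1, Mirg and Miat, where 3 counts are 1.79 to 6.09 CPM.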
